A study of Homo sapiens with 80 samples.

Results

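The WNT ligand genes described here are WNT2, WNT2B, WNT3A, WNT4, WNT5A, WNT5B, WNT6, WNT8A, WNT9B and WNT11, 10 of the 43388 genes in the expression tables. They were taken by name because each encodes a secreted WNT protein and has a single row in both tables. WNT3, whose name is spread over numbered rows, was not used. Other ligands of the family (WNT1, WNT7A, WNT7B, WNT8B, WNT9A, WNT10A, WNT10B and WNT16) served as a comparison list. All 10 genes were above 0 TPM (transcript abundance scaled to gene length and to the library total) in at least 1 library, and 9 passed the expression filter of each experiment; WNT9B did not.

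Human pluripotent stem cells were turned into cardiomyocytes by the GiWi protocol. In every differentiation, CHIR99021 at 6 to 12 µM, which activates β-catenin signalling by inhibiting the kinase GSK3, was given on day 0, and IWP2 at 5 µM, an inhibitor of the enzyme Porcupine, followed on day 2 in WTC11 and on day 3 in H9 and IMR90-4. Flow cytometry on day 16 for the cardiomyocyte protein troponin T set the purity class of a differentiation. The multi-omic experiment sampled WTC11, an induced pluripotent line, in 25 wells of 1 high purity differentiation begun at passage 52 and in 31 wells of 1 low purity differentiation begun at passage 69. Up to day 6, 4 wells of each class were taken at every sampling. Later, the high purity differentiation gave 3, 1, 2 and 3 wells (days 8, 10, 13 and 16) and the low purity differentiation gave 4, 4, 4 and 3. The RNA-only experiment had 1 high and 1 low purity differentiation each of H9, an embryonic stem cell line (passage 58 high, 55 low), of IMR90-4, an induced pluripotent line (55 high, 75 low), and of WTC11 (81 high, 69 low). Each gave 1 library at each of 4 stages: day 0 (stage 1), the day IWP2 was due (stage 2), day 4 or 5 (stage 3) and day 6 or 7 (stage 4). In the multi-omic experiment, purity class, passage and differentiation cannot be told apart, and p-values measure only the spread between wells of the same differentiation.

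WNT proteins are secreted lipid-modified glycoproteins that bind Frizzled receptors. Canonical ligands such as WNT3A and WNT8A act with LRP5 or LRP6 to stabilise β-catenin, which then drives target genes through TCF and LEF factors; noncanonical ligands such as WNT5A, WNT5B and WNT11 act through coreceptors such as ROR2 and through planar polarity proteins on cell movement and calcium. Canonical signalling is needed for the primitive streak to form mesoderm, and it has to fall for mesoderm to become cardiac, which is why the protocol activates and then blocks it. IWP2 acts on the protein: Porcupine attaches a fatty acid to a conserved serine of each WNT, and without it the ligand is not secreted. RNA abundance, measured here, does not show how much ligand was secreted.

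The site on which IWP2 bears is shown first because it is shared by all 10 genes, canonical and noncanonical. A 30-base stretch of coding sequence around the serine codon was read from the longest coding transcript of GENCODE v29 that holds it. It is given for the 6 ligands on which the results turn, with the serine codon in capitals. The codon is number 209 in WNT3A, 204 in WNT8A, 244 in WNT5A, 223 in WNT5B, 212 in WNT2 and 215 in WNT11.
WNT3A: tgcaagtgccacgggctgTCGggcagctgc
WNT8A: tgcaaatgtcatggcatcTCTgggagctgc
WNT5A: tgcaagtgccatggggtgTCCggctcatgt
WNT5B: tgcaaatgccacggcgtcTCGgggtcctgc
WNT2: tgcaagtgccacggggtgAGCggctcatgt
WNT11: tgtaagtgccatggggtgTCTggctcctgc

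The genes lie at 10 separate loci (GENCODE v29, hg38), all protein coding. WNT3A is at chr1:228007051-228061260 and WNT5B at chr12:1529891-1647243, both on the plus strand. WNT8A is at chr5:138083892-138092365 on the plus strand, and WNT5A at chr3:55465715-55490539 on the minus strand. WNT2 (chr7:117275451-117323289), WNT4 (chr1:22117305-22143969) and WNT11 (chr11:76186325-76210736) are on the minus strand, WNT2B (chr1:112466541-112530165) on the plus strand. Exons of WNT2, WNT2B, WNT4 and WNT11 share bases with a gene on the other strand (AC002465.1, ST7L, AL445253.1 and AP000785.1). Whether the authors' counting used strand is not given in the sources used here, so reads of these 4 pairs cannot be told apart. WNT6 (chr2:218859821-218874233) and WNT9B (chr17:46833201-46886730) are on the plus strand. No exon of these or of the 4 other members shares bases with a gene on the other strand.

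Promoters were searched because 4 of the genes rose together on day 2, after CHIR99021. In the 250 bases before the RefSeq start (GRCh38.p14; 9 of the 10 genes matched, WNT11 not), no member held CTTTG followed by AA, AT, TA or TT on either strand, forms of the TCF/LEF motif that 12% of 35116 promoters hold. The core T-box motif AGGTGT, on either strand, was found for WNT3A and WNT5B and for no other member; 9.57% of promoters hold it. Both windows are shown, with the match in capitals (on the minus strand in WNT3A). The WNT3A window is chr1:228006748-228006997 and has 86% G and C, against a median of 58% over all promoters. The WNT5B window is chr12:1616806-1617055, has 54.8% G and C, and lies within an exon of a WNT5B transcript that GENCODE annotates without a coding sequence. Only a single RefSeq start of each gene was searched, so any other start is not covered. A match of letters is not a bound site.
WNT3A: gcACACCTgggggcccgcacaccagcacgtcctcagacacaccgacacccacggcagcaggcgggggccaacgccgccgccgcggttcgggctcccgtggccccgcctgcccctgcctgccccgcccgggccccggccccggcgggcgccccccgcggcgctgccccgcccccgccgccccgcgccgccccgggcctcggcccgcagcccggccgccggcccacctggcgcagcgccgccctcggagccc
WNT5B: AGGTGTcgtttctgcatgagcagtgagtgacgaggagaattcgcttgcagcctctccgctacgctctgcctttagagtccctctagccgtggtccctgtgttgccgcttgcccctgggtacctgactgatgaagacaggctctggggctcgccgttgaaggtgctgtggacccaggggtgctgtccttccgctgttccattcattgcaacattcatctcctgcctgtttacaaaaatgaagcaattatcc

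Multi-omic libraries held 6579715 to 18143597 reads and RNA-only libraries 17990882 to 40357968. High purity wells were sequenced more deeply than low purity wells, without overlap, on days 0, 2, 4 and 6. The reads were 11507316 to 18143597 against 6579715 to 11059737 on day 0 and 9964769 to 14718686 against 6841508 to 7732058 on day 2. They were 12246678 to 15740106 against 9334303 to 11386125 on day 4 and 9752007 to 13900958 against 7682563 to 8743290 on day 6. The part of depth in the differences between classes was not tested. Defining markers matched the labelled stages: NANOG, a pluripotency factor, averaged 102 and 92.5 TPM on day 0 in the high and low purity wells, the primitive streak factor TBXT 758 and 588 TPM on day 2, and TNNT2, cardiac troponin T, 3370 and 1070 TPM on day 16. The POU5F1 row was near 0 on day 0 in both (0.637 and 0.295 TPM). These are bulk samples, in which fewer cells of a type and less RNA per cell cannot be told apart.

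A gene counts as called where its adjusted p was under 0.05 and its log2 fold change was 1 or more in either direction. In the multi-omic experiment, fold changes are from limma on log2(TPM + 1), given as high minus low or later minus earlier with their SE, and they understate changes of low genes. Between the classes, none of 9 members was called before CHIR99021 (day 0). Of all 25664 genes, 1.07% passed the call at that time, and 6591 passed at p under 0.05 without adjustment. The count was 2, 3, 2, 2, 3 and 2 on days 2, 4, 6, 8, 13 and 16, beside 5.33%, 7.84%, 8.8%, 12.2%, 10.8% and 13.4% of all genes. Every day with calls had members in both directions, and the median over the 9 members ran from -0.06 to 0.66, beside all-gene medians of -0.03 to 0.01.

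**Figure D1:**
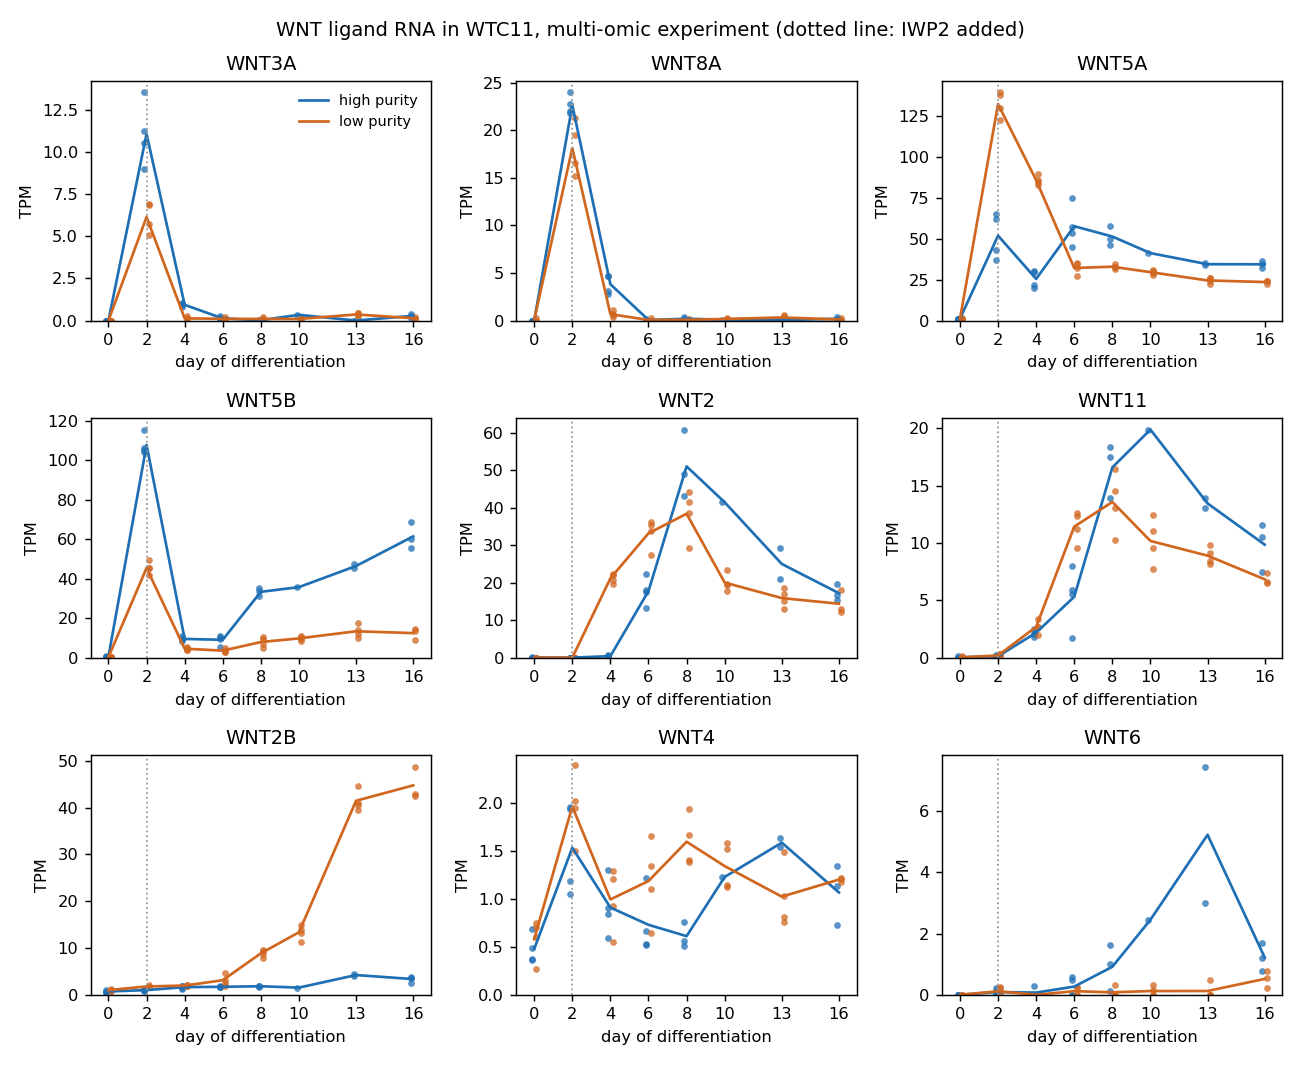
Level of 9 WNT ligand genes in TPM (y axis, linear) by day of differentiation (x axis) in WTC11; points are wells, lines join the group means, and the dotted line marks the addition of IWP2. WNT3A and WNT8A peak on day 2, when WNT5A is higher in the low and WNT5B in the high purity wells, and WNT2B reaches a mean of 44.7 TPM in the low purity wells on day 16.

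The canonical ligands WNT3A and WNT8A were present for a short time around day 2 in both differentiations. No read of WNT3A was found in any of the 8 wells on day 0. On day 2, WNT3A stood at 10.6, 13.5, 11.2 and 8.98 TPM in the high purity wells and at 5.11, 6.94, 5.72 and 6.85 TPM in the low purity wells. The groups did not overlap, but the difference of 0.81 ± 0.10 was under the fold required for a call (limma, adjusted p = 4.36e-09). Against a floor of 3 reads per well on day 0, the day 2 mean was at least 63.7-fold higher in the high and at least 21.5-fold higher in the low purity differentiation. By day 4, after IWP2, WNT3A had fallen by 2.71 and by 2.66 on the log2 scale, to means of 0.932 ± 0.0882 and 0.129 ± 0.116 TPM (SD, n = 4 each). On the TPM scale these declines are 11.9-fold and 47.8-fold. The day 4 values rest on 14 to 20 reads per high purity well and on 0 to 3 per low purity well, so the 47.8-fold is uncertain. The difference between the declines was -0.06 with the pseudocount of 1. It was called in the other direction with a pseudocount of 0.1 (1.41) and by edgeR on recovered reads (1.94). The day 4 means differed 7.25-fold between the classes without overlap of wells, a ratio that rests on the same few reads. It was short of a call on the log2(TPM + 1) scale (0.76 ± 0.10, limma adjusted p = 1.69e-08). WNT3A stayed at or below 0.445 TPM in every well from day 6 to day 16.

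WNT8A, which patterns posterior mesoderm in vertebrate embryos, followed the same course at a higher level. On day 2 it was at 22.0, 21.8, 22.8 and 24 TPM in the high purity wells and at 16.6, 21.3, 15.2 and 19.5 TPM in the low purity wells. These ranges lie close together without overlap, and the difference was not called (0.38 ± 0.14, limma adjusted p = 0.0313). The day 2 mean of the high purity wells was at least 123-fold above the day 0 floor. The classes parted on day 4, when WNT8A was 4.71, 2.77, 3.13 and 4.66 TPM in the high but 0.607, 0.336, 0.665 and 1.08 TPM in the low purity wells. This 5.68-fold difference was called (1.49 ± 0.14, limma adjusted p = 7.05e-12). Between day 2 and day 4, WNT8A thus fell by 2.42 in the high and by 3.54 in the low purity differentiation, and the difference between the 2 declines was itself called (1.11 ± 0.20, limma adjusted p = 2.15e-05). Beside it, the summed level of the 7 primitive streak markers on day 4 was 132 to 157 TPM in the high and 21.1 to 26.6 TPM in the low purity wells, none of the 7 being at 0. The other cell type lists, except endoderm, separated the classes on that day too. The part of any such cells in the WNT8A difference was not tested. On day 6 WNT8A was close to 0 in both (0.0525 and 0.0562 TPM).

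The noncanonical ligands WNT5A and WNT5B made up most of the members' summed TPM on day 2, and each class had more of a different one. WNT5A, which signals through ROR2, was 65.2, 42.9, 37.1 and 62.2 TPM in the high purity wells and 138, 130, 122 and 139 TPM in the low purity wells. The lowest low purity well was far above the highest high purity well. The mean was 2.55-fold higher in the low purity wells (log2 difference -1.30 ± 0.13, limma adjusted p = 1.37e-11). WNT5B, its closest relative, was 105, 116, 106 and 104 TPM in the high and 45.4, 45.3, 41.7 and 49.4 TPM in the low purity wells. It was 2.37-fold higher in the high purity wells (1.30 ± 0.17, limma adjusted p = 3.09e-08), again without overlap. In the same wells the 7 pluripotency markers summed to 1640 to 1810 TPM in the high and 973 to 1030 TPM in the low purity class. POU5F1 was at 0 in the latter, but its row was near 0 on day 0 too. The 8 cardiomyocyte markers summed to 22.6 to 26.4 and 38.4 to 45.6 TPM. Their sums already differed on day 0 (21.4 to 27.5 and 31.5 to 37.1 TPM), and TNNT2 averaged only 0.746 and 0.87 TPM on day 2. The part of the cells that these lists mark in the WNT5A and WNT5B differences was not tested.

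Summed over the 10 genes, the day 2 levels were nearly equal, with means of 196 and 206 TPM. Of this sum, WNT5B held 55.1% in the high and 22.1% in the low purity wells, and WNT5A 26.2% and 64.2%. WNT8A contributed 11.6% and 8.79%, and WNT3A 5.68% and 2.99%. The makeup of this sum thus differed between the classes on day 2 while its total differed little. WNT3 and the ligands of the comparison list are outside the sum.

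**Figure D2:**
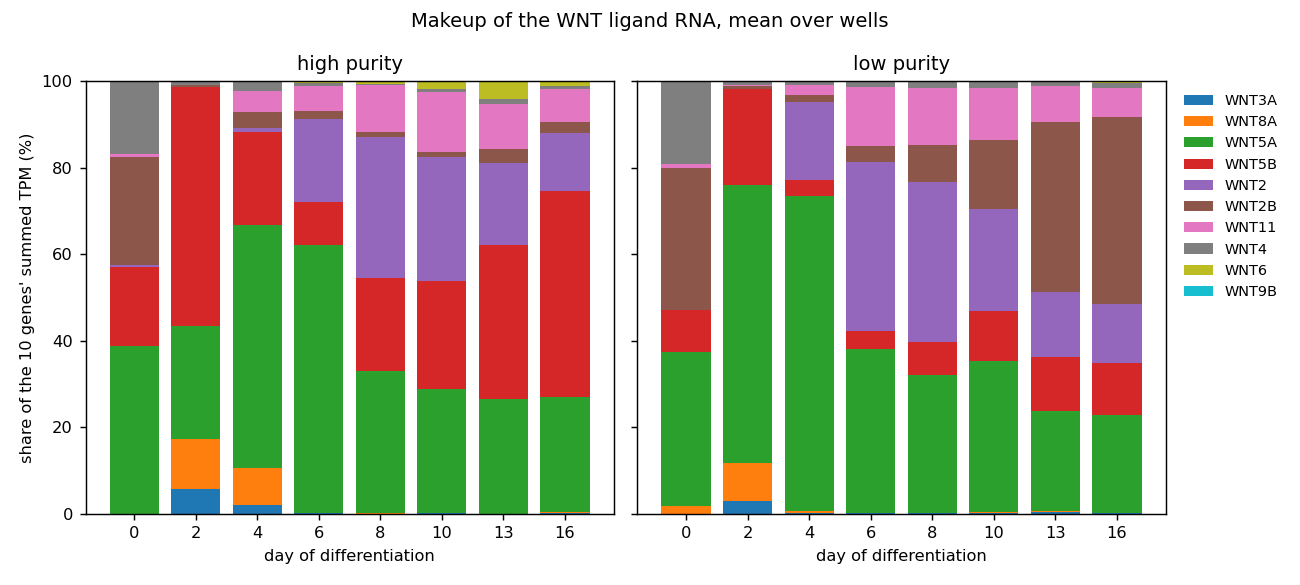
Share of the summed TPM of the 10 ligand genes held by each (y axis, percent, mean over wells) by day (x axis), in high purity (left) and low purity (right) WTC11. On day 2 WNT5B holds 55.1% in the high and WNT5A 64.2% in the low purity wells; on day 16 WNT5B holds 47.6% in the high and WNT2B 43.2% in the low purity wells.

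After IWP2, WNT5A and WNT5B took separate courses. WNT5B fell by 3.49 in the high and by 3.11 in the low purity differentiation from day 2 to day 4, to 9.5 ± 1.03 and 4.55 ± 0.64 TPM. WNT5A fell by 1.10 in the high purity differentiation, from 51.8 to 25.4 ± 5.39 TPM, a call that ended without TMM scaling (-0.98) and without well 1 or 4 of day 2 or well 3 of day 4 (-0.98, -0.99 and -0.97). In the low purity differentiation it went from 132 to 85.7 ± 2.93 TPM (log2 difference -0.67), short of a call. On day 4 WNT5A was therefore 3.38-fold higher in the low purity wells (-1.73 ± 0.13, limma adjusted p = 1.67e-15), and it held 72.7% of the members' summed TPM there against 56.3%. The 7 stromal markers summed to 1170 to 1230 TPM in these low purity wells and to 287 to 436 TPM in the high purity wells, with DCN at 0 in the latter. All the other marker lists but endoderm also separated these wells, in both directions. Epicardial markers, for example, summed to 57.9 to 58.7 TPM in the low and 10.0 to 17.0 TPM in the high purity wells. Surface and amnion markers summed to 266 to 297 and 399 to 497 TPM. The part of any such cells in the WNT5A difference was not tested.

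The order of the classes for WNT5A turned over between day 4 and day 6. It rose by 1.07 in the high purity differentiation, to 74.6, 53.5, 57.4 and 44.9 TPM, and fell by 1.45 in the low purity differentiation, to 34.4, 35.0, 31.9 and 27.0 TPM. The difference between these changes was called (2.52 ± 0.18, limma adjusted p = 1.9e-15). The rise in the high purity differentiation was at the edge of the fold required: it was 0.93 without well 3 of day 4 and 0.98 without well 1 of day 6. From day 6 on, WNT5A was higher in every high purity well than in any low purity well of the same day, with differences of 0.79, 0.85, 0.66 and 0.74 on days 6, 8, 13 and 16, none of which reached a log2 fold change of 1.

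WNT5B came back to a higher level in the high purity differentiation than in the low. From 9.05 ± 2.53 TPM on day 6 it rose by 2.04 to 33.4 ± 2.18 TPM on day 8 and by a further 1.07 to 55.5, 68.6 and 60.3 TPM on day 16. That last rise was not called without TMM scaling (0.86) or without well 1 of day 8 (0.97). In the low purity wells WNT5B went from 3.55 ± 0.914 TPM on day 6 to 7.91 ± 2.67 TPM on day 8 (0.92, short of a call) and to 9.02, 14.6 and 13.8 TPM on day 16 (0.82 from day 8, short of a call). The differences between the classes were called on day 6 (1.09 ± 0.17), day 8 (2.21 ± 0.18, 4.22-fold), day 13 (1.94 ± 0.21) and day 16 (2.46 ± 0.20, 4.94-fold, limma adjusted p = 2.32e-14). The call of day 6 ended at 0.99 without high purity well 4 and at 0.98 without low purity well 1. WNT5B held 47.6% of the members' summed TPM in the high purity wells on day 16 and 11.9% in the low purity wells. The cardiomyocyte markers summed to 11100 to 13100 TPM in the former and 3920 to 5850 TPM in the latter, with none at 0, and their part was not tested.

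WNT11, a noncanonical ligand needed for heart formation in the frog embryo, appeared in these WTC11 wells after IWP2 had been added. It was at most 0.316 TPM on day 2 and rose by 1.45 in the high and by 1.58 in the low purity differentiation by day 4, to 2.18 ± 0.302 and 2.69 ± 0.544 TPM. On day 6 it was 5.93, 5.58, 1.75 and 7.98 TPM in the high and 11.2, 9.52, 12.3 and 12.7 TPM in the low purity wells. The groups did not overlap, and the difference was called (-1.09 ± 0.19, limma adjusted p = 6.39e-06), but it rested on high purity well 3: without it the value was -0.75 and no call. High purity wells caught up on day 8 (16.6 ± 2.32 against 13.6 ± 2.6 TPM), a rise of 1.80 from day 6. On days 13 and 16 they were above all low purity wells (13.4 against 8.89, and 9.86 against 6.83 TPM), short of the fold for a call.

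**Figure D3:**
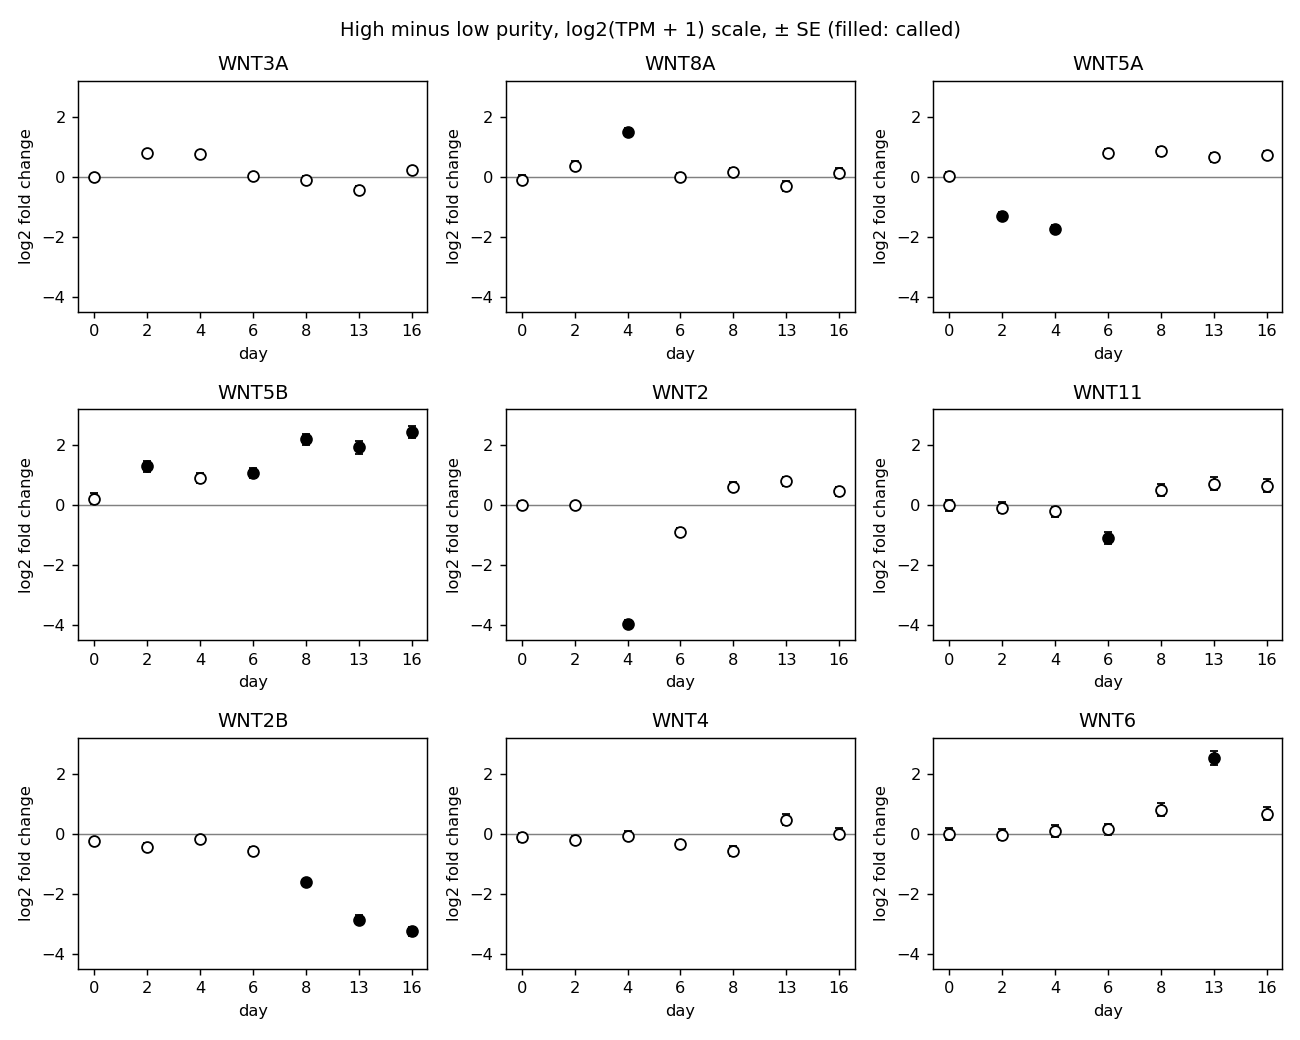
High minus low purity log2 fold change on the log2(TPM + 1) scale (y axis) by day (x axis; day 10 not tested) for 9 ligand genes; bars are the SE, and filled points passed the call. WNT5A goes from -1.30 and -1.73 on days 2 and 4 to values between 0.66 and 0.85 from day 6, and WNT2B declines to -3.25 on day 16.

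WNT2, a ligand expressed in heart-forming mesoderm of the mouse embryo, gave the largest log2 difference between the classes of any member on the 7 days tested. No read of it was found on day 2 in any of the 8 wells. On day 4 it was 21.9, 20.7, 19.5 and 22.4 TPM in the low purity wells, at least 52.1-fold above the day 2 floor, and 0.475, 0.136, 0.341 and 0.687 TPM in the high purity wells. The means differed 51.5-fold (-3.94 ± 0.13, limma adjusted p = 2.42e-27). In the high purity differentiation WNT2 came 1 sampling later, rising by 3.61 to 22.3, 18.0, 13.3 and 17.4 TPM on day 6, when the low purity wells stood at 33.8, 36.1, 35.5 and 27.3 TPM. The change from day 2 to 4 differed between the differentiations by -3.94 ± 0.18, and that from day 4 to 6 by 3.05 ± 0.18 (limma adjusted p = 1.63e-21 and 1.49e-17). By edgeR on recovered reads the first was -5.68 and not called.

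The cardiomyocyte markers moved with WNT2 on day 4. The sum of the 8 markers was 1250 to 1390 TPM in the low and 121 to 159 TPM in the high purity wells, with none of the 8 at 0, and TNNT2 averaged 489 against 15.2 TPM. Stromal and epicardial sums were also higher in these low purity wells, as given above. The part of any such cells in the WNT2 difference was not tested. WNT2 then reached its highest mean on day 8 in both differentiations, 51.0 ± 8.98 TPM in the high and 38.4 ± 6.5 TPM in the low purity wells, with overlapping wells. By day 16 it had fallen by 1.31 and by 1.14, to 17.2 ± 2.08 and 14.4 ± 3.12 TPM.

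WNT2B, a canonical ligand of mesothelium and mesenchyme, separated the classes late. It averaged 0.724 and 0.995 TPM on day 0, and 1.0 and 1.77 TPM on day 2, in the high and low purity wells. In the low purity wells it rose by 1.28 from day 6 to day 8 and by 2.42 from day 8 to day 16. The single wells on day 16 were 48.8, 43.0 and 42.5 TPM in the low and 2.57, 3.83 and 3.66 TPM in the high purity differentiation. The low purity mean was 4.85-fold higher on day 8, 9.8-fold on day 13 and 13.4-fold on day 16, and all 3 were called (-1.62 ± 0.13, -2.86 ± 0.15 and -3.25 ± 0.14; limma adjusted p = 1.25e-23 on day 16). On day 10, which was not tested, it was 11.4 to 14.9 TPM in the 4 low purity wells and 1.53 TPM in the single high purity well.

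Markers of epicardium and of stroma were high in the same wells. The 7 epicardial markers summed to 423 to 578 TPM in the low and 18.7 to 22.9 TPM in the high purity wells on day 16, with WT1 at 79.2 and 1.09 TPM. The 7 stromal markers summed to 8620 to 11700 and 460 to 548 TPM, and none of either list was at 0 on that day. The part of such cells in the WNT2B difference was not tested.

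The remaining members were low. WNT4, which acts in kidney and gonad development, had group means between 0.479 and 1.96 TPM on all days and no call in any multi-omic comparison. WNT6, an epithelial ligand, was called on day 13 alone, at 3.00 and 7.44 TPM in the 2 high purity wells against a mean of 0.124 ± 0.247 TPM in the 4 low purity wells (2.52 ± 0.23, limma adjusted p = 3.31e-12). The high purity values rest on 17 and 42 reads. The 6 surface and amnion markers summed to 232 to 278 and 32.6 to 66.7 TPM in these wells, and their part in the difference was not tested. WNT9B was listed at 0 in every multi-omic well but 1, a high purity well of day 16 with 1 read.

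Changes within each differentiation were tested over the steps of the protocol. From day 0 to 2, 4 of 9 rose in each differentiation and none fell. Of all genes, 16.7% were called in the high purity differentiation (9.66% as higher) and 17.9% in the low (11% as higher). The 4 were the same in both, WNT3A, WNT8A, WNT5A and WNT5B. On the log2(TPM + 1) scale WNT5B rose by 6.18 ± 0.17 in the high purity differentiation (0.529 to 108 TPM) and WNT5A by 5.94 ± 0.13 in the low (1.05 to 132 TPM). As ratios of mean TPM in the low purity differentiation, the rises were 126-fold for WNT5A and 154-fold for WNT5B, so their order depends on the scale; WNT8A, with 2 reads in 1 well on day 0, is not ranked. Here too the difference between the differentiations was called, -1.33 ± 0.18 for WNT5A and 1.07 ± 0.24 for WNT5B (limma adjusted p = 2.23e-07 and 0.000956), among 3.22% of all genes. The WNT5B value did not hold under other settings: it was 0.69 with a pseudocount of 0.1, 0.99 without scaling and 0.46 by edgeR on recovered reads, none a call.

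From day 2 to 4, when IWP2 was present, 5 of 9 members were called in each differentiation (13.7% and 16.9% of all genes). WNT3A, WNT8A and WNT5B fell and WNT11 rose in both; WNT5A fell in the high and WNT2 rose in the low purity differentiation. The difference in change was called for 2 members, WNT2 and WNT8A, as given above (8.94% of all genes). From day 4 to 6, WNT2 and WNT5A rose and WNT8A fell in the high purity differentiation (3 of 9; 7.96% of all genes), whereas WNT11 rose and WNT5A fell in the low (2 of 9; 6.62%). The difference in change over this step was called for WNT2, WNT5A and WNT8A (3 of 9; 7.51%), with -1.50 ± 0.20 for WNT8A, which had been higher in the high purity wells on day 4. By edgeR on recovered reads the WNT8A value was -2.46 and not called. From day 6 to 8, 3 members rose in the high purity differentiation (5.58% of all genes) and WNT2B alone in the low (3.31%). From day 8 to 16, 2 members were called in each (11.4% and 6.39%): WNT2 fell in both, WNT5B rose in the high and WNT2B in the low.

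**Figure D4:**
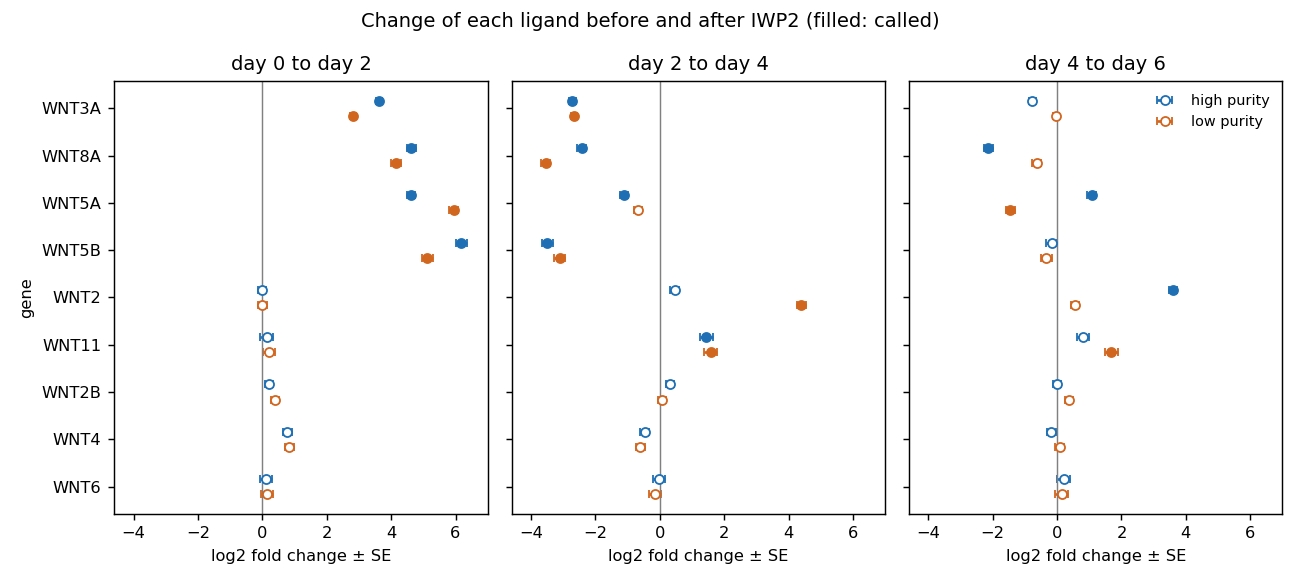
Log2 fold change with SE (x axis, log2(TPM + 1) scale) of 9 ligand genes (y axis) over day 0 to 2, 2 to 4 and 4 to 6 in the high and low purity differentiations; filled points passed the call. WNT3A, WNT8A, WNT5A and WNT5B rise from day 0 to 2 in both, WNT5A goes up by 1.07 in the high and down in the low purity differentiation from day 4 to 6, and WNT2 rises by 4.40 in the low purity differentiation at day 2 to 4 and by 3.61 in the high at day 4 to 6.

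In the RNA-only experiment, the same 4 ligands rose between stages 1 and 2 across the 6 differentiations, and WNT4, WNT6 and WNT11 rose with them (7 of 9 members; 25.6% of 23848 genes called by edgeR's quasi-likelihood test on counts, 14.8% as higher). WNT8A rose by 9.08 ± 0.57 and WNT5A by 5.57 ± 0.33 (edgeR adjusted p = 3.11e-09 and 2.05e-09). After IWP2, from stage 2 to 3, WNT8A fell by 2.99, WNT4 by 2.98 and WNT5A by 1.38, and WNT2 rose by 4.95 (4 of 9; 6.86%). From stage 3 to 4, WNT8A fell by 3.22, WNT5A rose by 1.12 and WNT2 rose by 5.88 ± 1.16 (3 of 9; 3.72%). Several of these calls needed all 3 lines. The WNT2 rise from stage 2 to 3 was not called without any one of them (4.33 to 5.16) or by DESeq2 (4.48). Without IMR90-4, WNT3A from stage 1 to 2 (3.63), WNT4 and WNT5A from stage 2 to 3 (-2.00 and -1.19) and WNT2 and WNT5A from stage 3 to 4 (4.46 and 0.87) were not called. Without WTC11, WNT2 (6.30) and WNT5A (1.24) from stage 3 to 4 were not called.

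Between the classes of the 3 lines, no member was called at any stage, and neither was any other gene (0% of 23848), although 354, 1896, 1798 and 2876 genes had an unadjusted p under 0.05 at stages 1 to 4. With DESeq2, 0, 79, 51 and 205 genes were called, among them 2 members, both at stage 2: WNT4 (2.25) and WNT5A (1.46). The replicate here is the differentiation, with 1 of each class per line, so the values are given line by line.

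At stage 2, WNT5A was higher in the high purity differentiation of every line: 34.0 against 12.1 TPM in H9, 40.0 against 20.3 in IMR90-4 and 26.4 against 6.55 in WTC11. The groups did not overlap (1.46 ± 0.34, edgeR adjusted p = 0.385). This is the opposite order to day 2 of the multi-omic experiment, where the low purity WTC11 wells had the higher level. WNT5B in WTC11 was also in the opposite order, at 45.6 TPM in the high and 56.6 TPM in the low purity library. In the multi-omic wells of day 2 it was higher in the high purity class. In both experiments the low purity WTC11 cells are labelled passage 69, while the high purity WTC11 cells are labelled 52 in one and 81 in the other, and the library kits differ. WNT8A was higher in the high purity differentiation of each line too, at 22.2 against 5.24, 43.8 against 31.2 and 14.1 against 10.4 TPM. So were WNT4 (14.8 against 0.824, 7.98 against 3.88 and 1.19 against 0.343 TPM; 2.24 ± 0.58, edgeR adjusted p = 0.421), WNT11 and, at lower levels, WNT6 and WNT2B. Of 18743 genes, 19.3% were higher in the high purity class in all 3 lines at that stage, and 6 of the 10 ligands were. At stage 3, high against low, WNT8A was 3.97 against 0.523 TPM in H9, 2.26 against 2.21 in IMR90-4 and 2.36 against 3.55 in WTC11. The WTC11 order is the opposite of that on day 4 of the multi-omic experiment.

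The ratio of the classes at stage 2 was widest in H9 for WNT3A, WNT4 and WNT8A. WNT3A was 5.05 TPM in its high and 0.39 TPM in its low purity library, against 4.28 and 5.04 TPM in IMR90-4 and 11.4 and 3.9 TPM in WTC11. In the same 2 H9 libraries, the 7 primitive streak markers summed to 370 and 27.8 TPM and the 8 cardiomyocyte markers to 24.7 and 230 TPM. TNNT2 itself was only 0.221 and 1.58 TPM. Other lists differed in both directions, such as stromal (156 and 347 TPM) and pluripotency (626 and 479 TPM). The part of any such cells in the ligand differences was not tested.

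**Figure D5:**
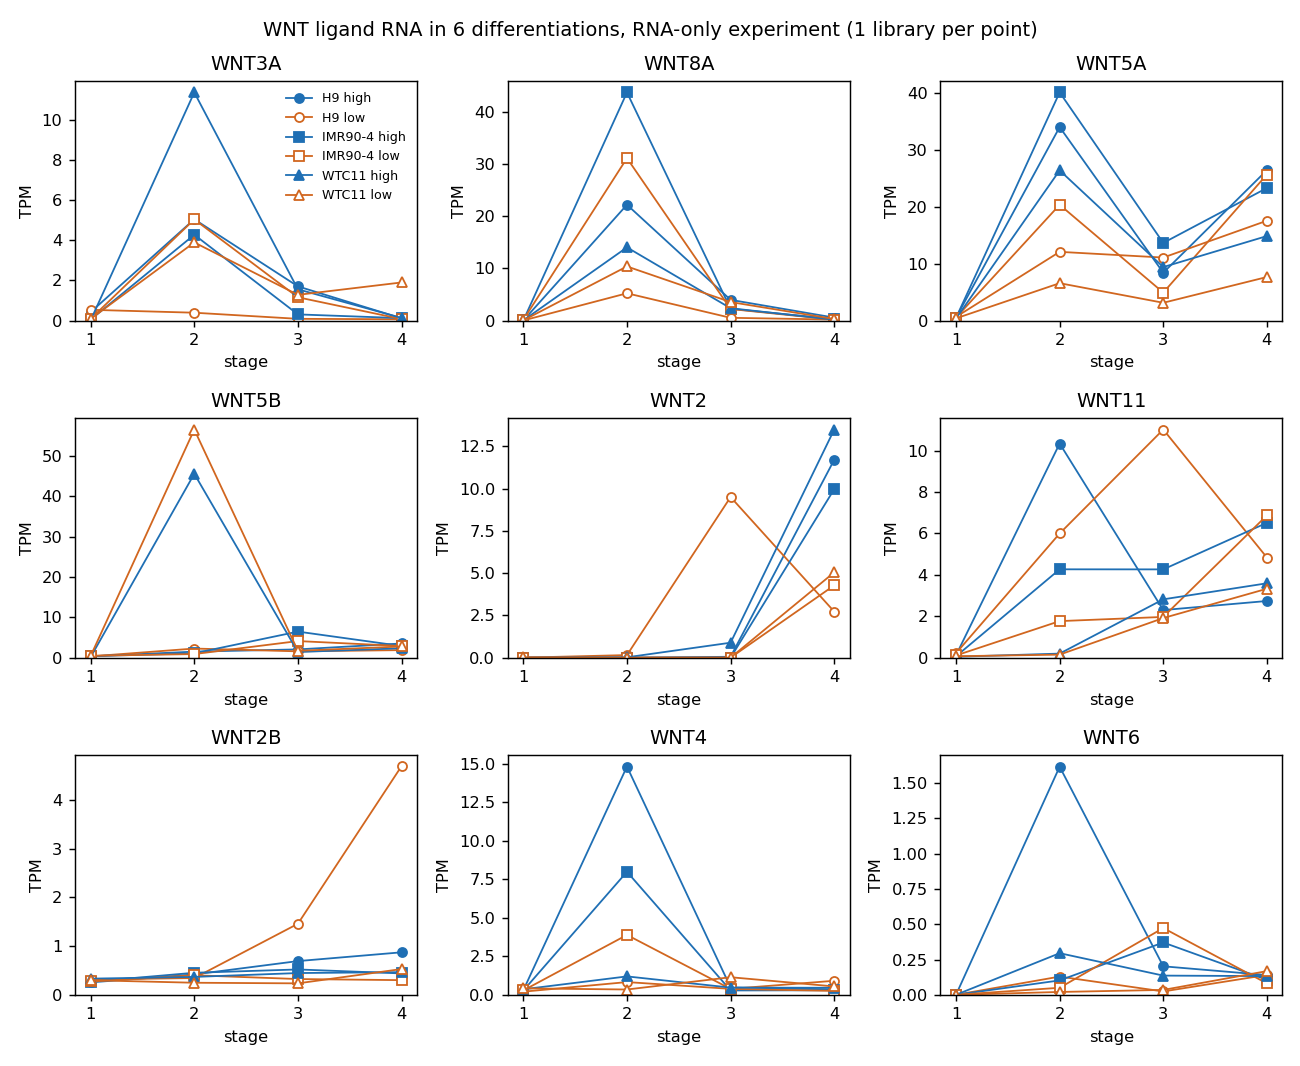
Level in TPM (y axis, linear) of 9 ligand genes at the 4 stages (x axis) in the 6 differentiations of the RNA-only experiment, 1 library per point; symbols give the line, filled for high and open for low purity. WNT5B at stage 2 is 45.6 and 56.6 TPM in WTC11 and at most 2.26 TPM in H9 and IMR90-4, and WNT5A at stage 2 is higher in the high purity library of each line.

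The lines themselves differed in the noncanonical ligands present at stage 2. WNT5B was 45.6 and 56.6 TPM in the high and low purity WTC11 libraries, and 1.5, 2.26, 1.08 and 0.892 TPM in the H9 and IMR90-4 libraries. WNT11 showed the reverse, with 0.196 and 0.146 TPM in WTC11 and 10.3, 6.0, 4.27 and 1.76 TPM in the other lines. Neither gene overlapped between WTC11 and the rest, in each case with p = 0.133 by a two-sided exact permutation test, the smallest that 2 against 4 allows. Adjusted over the 40 gene and stage pairs examined (Benjamini-Hochberg), both were 0.712. Stage 2 was day 2 in WTC11 and day 3 in the others, so line and day cannot be told apart, and TBXT was 212 and 101 TPM in WTC11 but at most 6.18 TPM in the other 4 libraries.

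WNT2 appeared at stages 3 and 4. At stage 3 it was 9.5 TPM in the low purity H9 library, against 0.0512 TPM in the high, and 0, 0, 0.884 and 0 TPM in the IMR90-4 and WTC11 libraries. That H9 library also had the highest cardiomyocyte marker sum of stage 3, 322 TPM against 31.6 to 157 TPM in the other 5. WTC11 at stage 3, day 4, had 0.884 TPM of WNT2 in the high and 0 TPM in the low purity library. The much higher low purity level of WTC11 on day 4 of the multi-omic experiment was thus not seen. At stage 4 WNT2 was higher in the high purity library of every line, at 11.7 against 2.73, 9.97 against 4.28 and 13.5 against 5.05 TPM, without overlap (1.57 ± 1.53, edgeR adjusted p = 0.723), where 14.8% of genes were higher in all 3 lines. In WTC11 this is the opposite order to day 6 of the multi-omic experiment. There WNT2 was 27.3 to 36.1 TPM in the low and 13.3 to 22.3 TPM in the high purity wells. WNT2B at stage 4 was 4.69 TPM in the low purity H9 library and at most 0.872 TPM elsewhere. The epicardial and stromal sums were 159 and 1570 TPM in that library, against 26.7 and 416 TPM in its high purity partner. WNT9B had at most 0.148 TPM, in the high purity H9 library at stage 2.

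The low purity WTC11 library stood apart at stage 4 in its ligands. It held 5.65 TPM of WNT1, 5.27 TPM of WNT8B, 2.82 TPM of WNT10B and 1.90 TPM of WNT3A, while WNT1, WNT8B and WNT10B were under 1 TPM in all libraries of H9 and IMR90-4 and WNT3A was at most 0.13 TPM in the other 5 at that stage. WNT10B was already at 3.3 TPM in the same differentiation at stage 2. Its 7 pluripotency markers summed to 1060 TPM, against 103 to 492 TPM in the other 5, and its 6 neuroectoderm markers to 88.7 TPM, against 9.24 to 45.7 TPM; the part of such cells was not tested. Without this differentiation, which was left out only after its values had been seen, 12 in place of 14 member calls were made between stages. WNT2 lost its calls at stages 2 to 3 and 3 to 4 (5.08 and 5.47, not called).

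The rest of the pathway is given for the multi-omic experiment, from lists of named genes. The lists overlap in NOTUM alone. The shares of all genes called are the background for these counts too: 16.7% (9.66% as higher) in the high and 17.9% (11% as higher) in the low purity differentiation from day 0 to 2, 13.7% and 16.9% from day 2 to 4, and 5.33%, 7.84% and 8.8% between the classes on days 2, 4 and 6. Of the 2 secretion genes, WLS, which carries WNTs to the cell surface, rose in both differentiations from day 0 to 2 (1.14 to 83.0 and 0.753 to 58.3 TPM), and PORCN, the target of IWP2, was not called there (3.41 and 3.37 TPM on day 2). WLS was lower in the high purity wells from day 6 on, by -1.23, -1.03, -1.04 and -1.12 on days 6, 8, 13 and 16. Of the 8 target genes of β-catenin, 7 rose from day 0 to 2 in each differentiation and none fell, and from day 2 to 4 7 fell in the high and 5 in the low. SP5 went from 0.189 to 445 and then 14.8 TPM in the high and from 0.0757 to 321 and then 7.26 TPM in the low purity differentiation. In the RNA-only experiment, 7 of the 8 rose from stage 1 to 2 (14.8% of all genes), and AXIN2, NKD1, NOTUM and SP5 fell from stage 2 to 3 (6.86% of all genes called). LEF1 was higher in the low purity wells on day 4 (108 against 50.6 TPM, -1.08 ± 0.11).

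Of 12 receptors, FZD5, FZD7 and FZD9 were higher in the high purity wells on day 4 and none was lower. FZD5 was 218 against 40.0 TPM there (2.42 ± 0.21) and stayed higher on days 6, 8 and 13. From day 0 to 2, FZD10 changed by 4.05 and 3.86 in the high and low purity differentiations, and FZD8 by -1.84 and -1.08. From day 2 to 4, FZD10 changed by -3.97 and -3.78, FZD8 by 4.1 and 3.53 and FZD4 by 3.14 and 3.6. Of 10 noncanonical coreceptors and planar polarity genes, ROR2, PTK7 and VANGL1 rose and ROR1 and CELSR2 fell from day 0 to 2 in each differentiation. ROR2, a receptor of WNT5A, rose by 3.33 and 3.57, to 53.9 and 56.8 TPM, while its relative ROR1 fell by 2.42 and by 3.22. None of these 10 was called between the classes on day 2, the day on which WNT5A and WNT5B differed.

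Of 11 secreted inhibitors tested, 4 rose and 4 fell in the high and 6 rose and 4 fell in the low purity differentiation from day 0 to 2. DKK1, which blocks LRP5 and LRP6, reached 1090 and 901 TPM before falling to 1.78 and 2.41 TPM on day 4. DKK4 changed by 8.98 and 9.61 from day 0 to 2 and by -8.41 and -9.0 from day 2 to 4. On day 4 SFRP1, SFRP2, SFRP5 and CER1 were higher in the high purity wells (1.67, 2.4, 1.76 and 1.51), and no inhibitor was lower. On day 16, DKK1, DKK2, SFRP2, SFRP5 and FRZB were lower there (-2.45, -3.1, -5.65, -3.01 and -3.02), and no inhibitor was higher (13.4% of all genes called). Of 6 potentiators tested, RSPO1, RSPO2, RSPO3 and RSPO4 were lower in the high purity wells on day 6, and none was higher. On day 4 the calls had gone both ways, with RSPO1 higher (1.77) and RSPO2 and RSPO3 lower (-1.98 and -1.6) in the high purity wells. RSPO2, which raises Frizzled levels at the cell surface, was 0.299 against 72.6 TPM on day 16 (-5.80 ± 0.19). LGR5 rose by 4.75 in the high and by 5.86 in the low purity differentiation from day 0 to 2, and was lower in the high purity wells on day 2 (-1.13). Of the 8 other ligands 3 were tested, and between the classes WNT16 alone was called, lower in the high purity wells on day 4 (-1.05). PORCN, AXIN2, FZD7, FZD9, VANGL1, DKK2, SFRP1, SFRP2, FRZB, RSPO4 and WNT16 are outside the rule for named genes and were named after their values were seen.

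As a description, the genes whose group means over the 16 purity and day groups were most like each member's were found among 16846 genes; groups of neighbouring days share their differentiation. WNT8A was most like FGF17 (Pearson r = 0.997), LOC105370273 (0.99) and TBXT (0.99), and WNT3A most like MIR3169 (0.982), GSC-DT (0.981) and LOC102723910 (0.98). WNT2 was most like ACTC1, cardiac actin (0.986), MIR99AHG (0.975) and POPDC2 (0.974). WNT2B was most like SGMS2 (0.983), KCNE4 (0.981) and LOC107985716 (0.979). WNT5A was most like CDH2, N-cadherin (0.957), UNC5C (0.952) and CCDC167 (0.946), and WNT5B most like RORA (0.966), PPIL6 (0.956) and EML2 (0.949). WNT11 went with MAPRE3 (0.976), FGA (0.976) and SOS1 (0.973), WNT6 with ITGB6 (0.978), VTCN1 (0.974) and HSPB2 (0.934), and WNT4, at the lowest likeness, with LOC107985145 (0.889), RSPO3 (0.861) and WASHC3 (0.86).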

How the data were processed

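RNA of 80 libraries was analysed. Per the labels' protocols, multi-omic libraries were stranded mRNA (Illumina TruSeq) and RNA-only libraries total RNA (Takara SMARTer). The authors deposited a count and a TPM table per experiment, with 43388 genes each; the submitters' processing notes name STAR 2.5.3a, featureCounts 2.0.3 and hg38, and how TPM was computed is not given in the sources used here. In the multi-omic count table, 0 of 56 columns matched the TPM column of the same name and 50 matched a differently named one, whereas all 24 RNA-only columns matched. TPM was therefore used for the multi-omic experiment, since 52 of 55 TPM columns lay nearest to their own labelled group against 28 of 55 count columns. Its depth is the reads recovered with gene lengths solved from the RNA-only tables (100% of nonzero TPM values of 37194 genes whole within 0.02). In the RNA-only counts, 36 broken lines (6 genes) were left out.

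The multi-omic test used limma 3.58.1 (trend option; 16 group means, 40 residual degrees of freedom) on the log2 of TMM-scaled TPM plus a pseudocount of 1, for the 25664 genes that reached 1 TPM in 3 or more libraries. RNA-only counts were fitted with edgeR 4.0.16 (TMM, filterByExpr, quasi-likelihood) in R 4.3.3, with means for line and stage, or a block for differentiation in the steps between stages. P-values were adjusted over all genes by Benjamini-Hochberg. DESeq2 1.42.0 and other settings served as alternatives. Each test was tried on simulated data. Members and lists were chosen with earlier results of these data known. All members are named; a list gene is named when called on 3 or more days or in both differentiations over day 0 to 2 or 2 to 4, at most 4 a list. Replicate wells were no duplicates (chi-square per gene 1.59 to 23.9 between wells of a group).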

Additional observations from a re-analysis of the deposited data

Results flagged for a closer look

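WNT5B in the high purity wells of day 2 had 1 well, at 116 TPM, far from the other 3, which lay between 104 and 106 TPM; 53 groups of wells were examined in this way, and chance marks about 1 in 20. The 4 low purity wells were between 41.7 and 49.4 TPM, so the well does not decide the order of the classes.

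The change over a step differed between the high and the low purity differentiation for 4 members, by a test of the difference in limma. From day 0 to 2 the difference, high minus low, was -1.33 for WNT5A and 1.07 for WNT5B. From day 2 to 4 it was -3.94 for WNT2 and 1.11 for WNT8A. From day 4 to 6 it was 3.05 for WNT2, 2.52 for WNT5A and -1.50 for WNT8A. Each rests on 1 differentiation per class. The WNT5B call was lost with a pseudocount of 0.1 (0.69), without scaling (0.99) and by edgeR on recovered reads (0.46), and those of WNT2 from day 2 to 4 and WNT8A from day 4 to 6 were lost by edgeR (-5.68 and -2.46).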

How the results depend on the processing

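Of 1332 member values recomputed under other settings, 1284 kept their side of the threshold, 10 lost a call, 36 gained one and 2 reversed; with a library or line left out, 1761 of 1791 were kept, 21 lost a call, 8 gained one and 1 reversed. Of these values, 2201 were called in neither fit, and 106 of them had the other sign; they count as kept. The WNT3A difference in change from day 2 to 4, -0.06 in limma with a pseudocount of 1, was 1.41 with a pseudocount of 0.1 and 1.94 by edgeR on recovered reads; the cause was not tested. WNT2 between the classes of the 3 lines at stage 3 was -1.27 with all lines and ranged from -7.48 without replicate 3 (WTC11) to 8.02 without replicate 1 (H9). Among the 3 lines, the 0 member calls between classes became 2 with DESeq2 and ranged from 0 to 1 with a line left out (1 without H9). The 14 calls between stages ranged from 8 (without IMR90-4) to 14 with a line left out; those lost without IMR90-4 included WNT3A (3.63) and WNT4 (-2.00). The multi-omic counts with 1 well left out were 13 to 15 between classes (14 in full), 15 to 18 in the high (17) and 14 to 15 in the low (14) purity steps, and 7 to 8 for the difference in change (7). By edgeR on recovered reads, WNT2 from day 2 to 4 (-5.68) and WNT8A from day 4 to 6 (-2.46) lost their calls in the difference in change.

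Well numbers did not pair the multi-omic samples (correlations of same-numbered wells -0.013 to 0.032 over 16 pairs; 3 correlated best with their own number). With the replicate block the member counts were 14, 17, 14 and 7, as without it. In the RNA-only experiment the number is the cell line; with no replicate block the counts were 0 between classes and 12 between stages, where WNT2 (2.03) and WNT5A (1.13) lost their calls from stage 3 to 4.

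Counts of calls over all genes moved by more than 1.5 times with a pseudocount of 0.1 in 14 of 20 comparisons (781 to 7026 calls), with edgeR on recovered reads in 13 of 20 (643 to 7036), with no filter in 1 of 27, with DESeq2 in 3 of 7 (0 to 6408) and without the differentiation term in 2 of 3 (487 to 5477). Without scaling, the median of all genes moved to as low as -0.183, and the share of calls that were higher went from 38.3 to 25.3% (day 8), 42.2 to 30.6% (day 13) and 43.0 to 28.1% (day 16) between classes, from 51.4 to 30.2% and 54.0 to 36.1% in the high purity steps from day 6 to 8 and 8 to 16, from 56.2 to 37.4% in the low purity step from day 8 to 16, and from 51.1 to 37.3% for the difference in change from day 0 to 2. Depth limits WNT6, WNT9B, WNT3A in the low purity wells of day 4 and WNT3A after day 4, whose values rest on few reads. Reads are not independent molecules.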
